A study of Mus musculus with 72 samples.

Results

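Bone-marrow-derived macrophages are phagocytes grown in culture from marrow progenitors under M-CSF, the growth factor of their lineage. The cells came from male C57BL/6 mice aged 3 to 6 months with the genotype Per2::Luc, in which the clock gene Per2 carries luciferase, and every culture had it. After 6 days of differentiation the cells received a serum shock, which brings the clocks of cultured cells into step, and RNA was taken every 2 h from 16 h to 62 h in 3 time courses, giving 72 libraries. No unsynchronised culture and no culture with a disrupted clock was analysed here.

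Of these 72 libraries, 27 form 3 windows of 9 libraries each, set by the Per2 rhythm. The first Per2 peak takes in 26, 28 and 30 h, the Per2 trough 38, 40 and 42 h, and the second Per2 peak 50, 52 and 54 h, with all 3 courses at each time. The windows are 12 h apart. The bracketed contrast is the mean of the trough minus the average of the means of both peak windows, on the log2 scale. A change that runs as a straight line through time cancels in it, whereas a change that slows or speeds up does not. A stricter, both-sided call was therefore made: a gene passed only if it was lower, or higher, in the trough than in the first peak and also than in the second peak. Both differences use the same 9 trough libraries, so they are not independent of each other. Because the hours were placed by Per2, the low level of Per2 at 38 to 42 h describes the windows and supports nothing.

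In the mammalian clock, the proteins BMAL1 (gene Arntl) and CLOCK or NPAS2 form pairs that bind E-box sequences and switch on the genes of their own repressors, the period and cryptochrome proteins. The repressors accumulate, enter the nucleus and block the activator pair until they are degraded, and the round takes about a day. A second loop runs through the nuclear receptors REV-ERBα (Nr1d1) and REV-ERBβ (Nr1d2), which repress Arntl, while ROR receptors activate it. The activator pair also drives output factors such as the PAR bZIP proteins DBP and TEF, which bind D-box sequences.

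The 27 libraries held 45309360 to 67010013 counts assigned to genes (median 53470469), and the median was 52635569 in the first peak, 55465309 in the trough and 53130583 in the second peak. Levels are given in CPM, the count scaled to library size, and over all 72 libraries the median depth makes 1 CPM worth about 55 counts. The share of counts from mitochondrially encoded genes had a median of 8.63% in the first peak, 10.6% in the trough and 11.2% in the second peak, and its part in the results was not tested. Defining macrophage genes were abundant in every one of the 27 libraries: Lyz2 lay between 11592 and 19143 CPM, Csf1r between 1198 and 4581 CPM, and Adgre1, which encodes F4/80, between 860 and 2117 CPM. The T cell gene Cd3e and the neutrophil gene Ly6g reached at most 3 counts in a library, and Elane at most 12. Other markers of these cells were counted. From the first peak to the second, 17 lymphocyte markers summed to medians of 215, 228 and 258 CPM. The sums of 15 neutrophil markers had medians of 50.8, 77.8 and 85.8 CPM. The fibroblast collagen gene Col1a1 was present at 2.54 to 65.2 CPM. In bulk samples, fewer cells of a type and less RNA per cell cannot be told apart. The library of course 1 at 40 h deviated from its neighbours in time in the same course by a root mean square of 0.706 (log2) over all genes tested, above a limit of 0.641 set from the median and spread of all 72 libraries. It lies in the trough, so most counts and calls that it moves are also given without it. The labels do not state that each course had its own animals or its own culture. The p-values therefore cover only the variation among these libraries, and that variation may be technical.

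Of 17903 genes tested, 558 (3.12%) were lower and 519 (2.9%) higher in the trough by the bracketed contrast, at an adjusted p under 0.05. All adjusted p-values in this account come from edgeR's quasi-likelihood F test with Benjamini-Hochberg adjustment over the 17903 genes. The both-sided call was far sparser: 15 genes (0.0838%) were lower and 10 (0.0559%) higher than in both peaks. All 25 also passed the bracketed contrast and had the same sign of both differences in each of the 3 courses. The 558 bracketed-lower genes were mostly of another kind, since their median log2 difference was -0.71 against the first peak and 0.02 against the second. Among the 519 bracketed-higher genes, the medians were 0.26 against the first peak and 0.13 against the second. The medians over all genes tested were 0.02 and 0.01. Without the library of course 1 at 40 h, 1144 genes (6.39%) were lower and 1093 (6.11%) higher, and the both-sided call held 25 lower (0.14%) and 19 higher (0.106%), 23 of them among the 25 (Per1 and Zfp638 were lost). When the contrast was formed once per course and tested over 3 course values with limma, 88 genes passed the bracketed contrast and no gene passed both-sided (253 had an unadjusted both-sided p under 0.05).

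**Figure D1:**
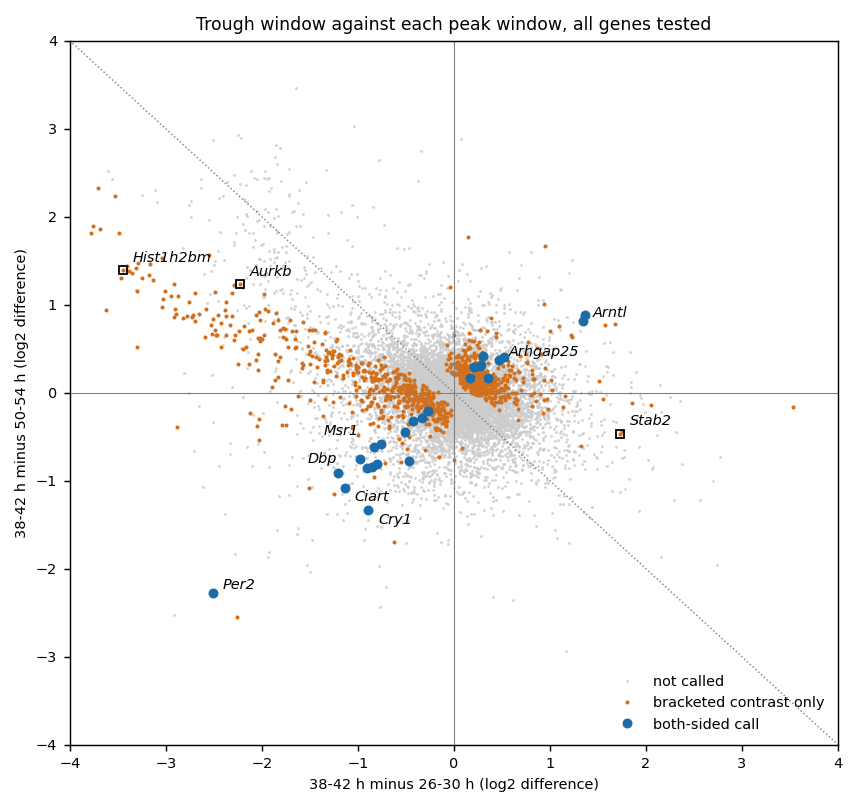
Each point is a gene. The x axis is the log2 difference of 38 to 42 h minus 26 to 30 h and the y axis that of 38 to 42 h minus 50 to 54 h. Grey points were not called, orange points passed the bracketed contrast only, and the 25 blue points passed the both-sided call; they lie in the lower left (Per2, Cry1, Ciart) and upper right (Arntl, Arhgap25), while histone genes such as Hist1h2bm sit in the upper left. On the dotted diagonal the bracketed contrast is 0.

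Clock repressors made up a large part of the genes that dipped. Per2, the period repressor that also carries the reporter, stood at 6.82, 8.65 and 9.91 CPM (lowest, median and highest of 9 libraries) in the first peak, 0.87, 1.55 and 2.22 CPM in the trough and 5.32, 6.79 and 10.4 CPM in the second peak. Every trough library lay below every peak library. The bracketed log2 difference was -2.39 ± 0.13 (SE), a 5.25-fold lower level, and the differences were -2.50 against the first and -2.28 against the second peak. Its paralog Per1 ranged from 11.6 to 19.7 CPM with a median of 14.7 CPM in the first peak, from 7.83 to 16.5 CPM with a median of 11.1 CPM in the trough, and from 14.6 to 27 CPM with a median of 17.8 CPM in the second peak. These windows overlapped, with 6 of 9 trough libraries below the lowest peak library. Per1 fell by 0.62 ± 0.10 (adjusted p = 1.24e-05) and passed the both-sided call by a narrow margin (adjusted p = 0.0483). Without course 1 at 40 h the fall was 0.56 and the both-sided adjusted p was 0.110.

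The cryptochromes, which form complexes with the period proteins, fell as well. Cry1 lay between 8.89 and 11.6 CPM (median 10.1 CPM) in the first peak, between 3.11 and 12.4 CPM (median 4.68 CPM) in the trough and between 10.8 and 19.7 CPM (median 13.1 CPM) in the second peak. Only the library of course 1 at 40 h, at 12.4 CPM, rose out of the trough range, while courses 2 and 3 stood at 4.17 and 3.11 CPM at that hour. The log2 difference of Cry1 was -1.11 ± 0.12 (adjusted p = 3.20e-09), with -0.89 against the first and -1.34 against the second peak (both-sided adjusted p = 3.59e-05). Without that library it was -1.40, and the both-sided adjusted p was 1.05e-12. Cry2 lay between 5.63 and 7.24 CPM (median 6.44 CPM) in the first peak, between 2.72 and 4.59 CPM (median 3.29 CPM) in the trough and between 4.27 and 8.91 CPM (median 6.08 CPM) in the second peak. Its trough libraries were all below the first peak, and 8 of 9 were below both peaks. Cry2 fell by 0.88 ± 0.08, by 0.91 from the first and 0.86 from the second peak (both-sided adjusted p = 1.97e-09). D930015M05Rik, a non-coding gene on the other strand whose exons overlap those of Cry2, fell by 0.85 ± 0.09, and its trough libraries (1.56 to 2.59 CPM) lay below all peak libraries. Whether the counting used strand is not stated in the sources at hand, so reads of Cry2 and D930015M05Rik cannot be told apart with certainty.

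Ciart, a repressor of BMAL1-driven transcription, was low in all but 1 of the trough libraries. It stood at 1.24 to 3.14 CPM (median 1.77 CPM) in the first peak, 0.427 to 2.77 CPM (median 0.777 CPM) in the trough and 1.39 to 2.34 CPM (median 1.74 CPM) in the second peak. The trough's highest value, 2.77 CPM, was course 1 at 40 h, and the other 8 trough libraries were below every peak library. Ciart fell by 1.11 ± 0.20 (both-sided adjusted p = 0.0177), and by 1.48 without that library (1.17e-05). Of the REV-ERB pair, Nr1d2 lay at 101 to 149 CPM (median 130 CPM) in the first peak, 71.7 to 108 CPM (median 82.9 CPM) in the trough and 101 to 150 CPM (median 118 CPM) in the second peak. It fell by 0.47 ± 0.06 (both-sided adjusted p = 3.78e-05), with 7 of 9 trough libraries below both peaks. Nr1d1 was 7.86 to 12.9 CPM (median 9.38 CPM) in the first peak, 5.18 to 15.9 CPM (median 11.4 CPM) in the trough and 8.11 to 18.1 CPM (median 11.5 CPM) in the second peak. Its windows overlapped broadly, and the bracketed difference was -0.04 ± 0.10 (adjusted p = 0.881). Within the trough window the mean of Nr1d1 was 7.90 ± 1.12 CPM at 38 h (SD, n = 3) but 13.8 ± 1.84 CPM at 42 h, so the 3 hours of that window do not sample a single level of this gene. The difference between Nr1d1 and Nr1d2 was not tested.

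Windows of DNA upstream of start sites are shown for 5 falling clock and output genes in which the E-box, the element bound by the activator pair, or its variant the E'-box was found. Promoters from RefSeq (GRCm38.p6) were matched by symbol for 19 of the 25 both-sided genes, and the 250 bases before the start site were searched on both strands for the E-box CACGTG, the E'-box CACGTT, the D-box TTATGTAA and the ROR element core TAGGTCA or TGGGTCA. An E-box occurred in 5 of 11 lower genes with an entry (Ciart, Cry1, Per1, Rnft2 and Tef), in 0 of 8 higher genes, and in 6.02% of all 32851 promoter entries. An E'-box occurred in 2 of 11 lower genes (Cry1 and Cry2) and in 3.85% of all entries, and neither of the other motifs occurred in any of the 19 (0.819% and 5.38% of all entries). Cry1 holds both kinds. A match describes the letters only, several genes have more than 1 entry, and the genes are too few for these shares to be set against each other. Capitals mark the E-box or E'-box (AACGTG where the E'-box lies on the other strand), 5′ to 3′ on the gene's strand, with 20 bases on each side, except that the Ciart window ends earlier, where an annotated exon begins.
Ciart, chr3:95882252-95882364, minus strand: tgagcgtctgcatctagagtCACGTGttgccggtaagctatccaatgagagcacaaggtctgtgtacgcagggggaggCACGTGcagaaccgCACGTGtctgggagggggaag
Cry1, chr10:85185089-85185153, minus strand: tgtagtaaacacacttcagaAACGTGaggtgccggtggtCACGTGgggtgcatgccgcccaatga
Cry2, chr2:92434210-92434255, minus strand: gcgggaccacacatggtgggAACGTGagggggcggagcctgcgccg
Per1, chr11:69098763-69098808, plus strand: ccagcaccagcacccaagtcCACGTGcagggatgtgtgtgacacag
Tef, chr15:81811256-81811301, plus strand: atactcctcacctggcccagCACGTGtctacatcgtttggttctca
The windows of Ciart, Cry1 and Cry2 lie upstream of the annotated gene. Those of Per1 and Tef lie inside the gene ahead of an internal start site, outside annotated exons.

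The activators moved the other way. Arntl, which encodes BMAL1, stood at 10.3 to 20.7 CPM (median 14.1 CPM) in the first peak, 20.5 to 46.9 CPM (median 36.7 CPM) in the trough and 15.1 to 30.1 CPM (median 20.8 CPM) in the second peak. The lowest trough value was course 1 at 40 h at 20.5 CPM, beside 46.9 and 44.7 CPM in courses 2 and 3, and the other 8 trough libraries lay above every peak library. Arntl rose by 1.08 ± 0.10 on the log2 scale, a 2.11-fold higher level, with 1.35 against the first and 0.81 against the second peak (both-sided adjusted p = 1.46e-05). Without that library the rise was 1.18 (5.06e-08). Gm45355, an antisense gene whose exons overlap those of Arntl, rose by 1.12 ± 0.12, and with no strand setting stated, its reads may be those of Arntl. Npas2, a stand-in for CLOCK, went from a median of 1.25 CPM in the first peak to 2.84 CPM in the trough and 1.68 CPM in the second peak. It rose by 0.93 ± 0.15 in the bracketed contrast (adjusted p = 2.49e-05), with 7 of 9 trough libraries above both peaks, and missed the both-sided threshold (adjusted p = 0.0561), which it passed in DESeq2 (adjusted p = 0.0126). Clock itself had medians of 58, 64.9 and 65.9 CPM in the 3 windows, and its difference of 0.09 ± 0.05 was not called (adjusted p = 0.359). Rora, an ROR receptor, had a difference of 0.16 ± 0.09 that was not called (adjusted p = 0.344).

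**Figure D2:**
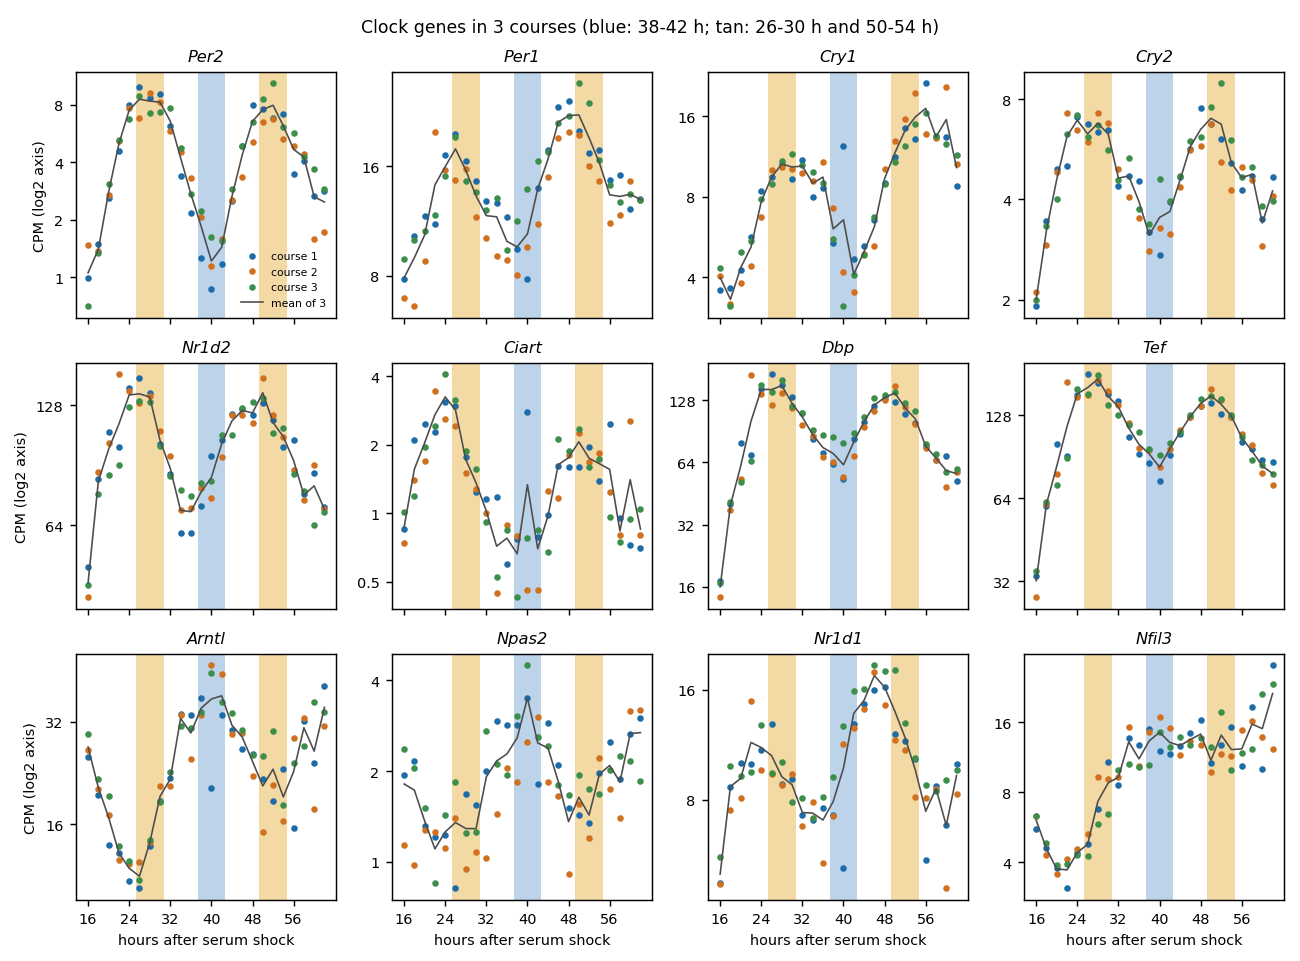
CPM on a log2 axis against hours after serum shock for 12 clock and output genes, 1 point per library coloured by course, with the mean of 3 courses as a line. Tan bands mark the peak windows and the blue band the trough. Per2, Per1, Cry1, Cry2, Nr1d2, Dbp and Tef dip in the blue band and Arntl and Npas2 crest there, Nr1d1 crosses it while rising, and course 1 at 40 h stands apart in Cry1, Ciart, Arntl and Nr1d1.

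Over the core clock list, 20 of 23 genes were tested, and Per3 and Rorb were among those that did not pass the filter on low counts. In the bracketed contrast 6 were lower and 2 higher, and both-sided 6 were lower and 1 higher, while 6.02% and 0.14% of all genes tested passed these calls in either direction. Per2 is among the lower genes but placed the windows. Csnk1d, which encodes a kinase acting on the repressor proteins, was not called (0.03 ± 0.03, adjusted p = 0.700), and neither were the repressors Bhlhe40 (-0.14, adjusted p = 0.829) and Bhlhe41 (-0.23, adjusted p = 0.523). Without course 1 at 40 h, Bhlhe41 (-0.53, adjusted p = 0.0259) and Timeless (-0.43, adjusted p = 0.0356) were called lower in the bracketed contrast. The list's median difference was -0.27 against the first peak and -0.002 against the second.

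Among the output factors, the PAR bZIP activators dipped, while their antagonist rose, mainly against the first peak. Dbp lay between 117 and 171 CPM (median 139 CPM) in the first peak, between 53.2 and 89.3 CPM (median 68.5 CPM) in the trough and between 98.3 and 150 CPM (median 118 CPM) in the second peak. Every trough library lay below every peak library, and Dbp fell by 0.86 ± 0.09 (both-sided adjusted p = 9.13e-06). Its exons overlap those of Sphk2 on the other strand. Tef lay between 139 and 180 CPM (median 157 CPM), then 73.9 and 101 CPM (median 91.9 CPM), then 126 and 159 CPM (median 142 CPM). Its windows also did not overlap, and it fell by 0.72 ± 0.06 (both-sided adjusted p = 4.99e-08). Exons of Tef overlap those of Gm17597 on the other strand. Nfil3, a repressor that binds the same D-box motif, had medians of 6.43, 14.5 and 11.7 CPM. It rose by 1.01 ± 0.13 against the first peak and differed by 0.14 ± 0.12 from the second (adjusted p = 0.529), so its bracketed rise of 0.58 rested on the first peak.

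Wee1, the kinase that holds back entry into mitosis, showed a one-sided pattern as well. Its medians were 40.9 CPM in the first peak, 14.5 CPM in the trough and 14.7 CPM in the second peak. It was lower than in the first peak (adjusted p = 2.22e-10) and differed by -0.09 ± 0.17 from the second (adjusted p = 0.812). Tspan4, a tetraspanin on the output list, fell by 0.20 ± 0.05 in the bracketed contrast and was not called both-sided (adjusted p = 0.310). Of the 20 genes on that list 18 were tested, 5 were lower and 1 higher by the bracketed contrast, and 3 (Ciart, Dbp and Tef) were lower both-sided. Over all genes tested, 3.12% were lower and 2.9% higher by the bracketed contrast, and 0.0838% were lower both-sided. Por, Usp2, Klf9, Klf10, Klf11 and Nampt were among the 12 not called, although Por passed without course 1 at 40 h.

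**Figure D3:**
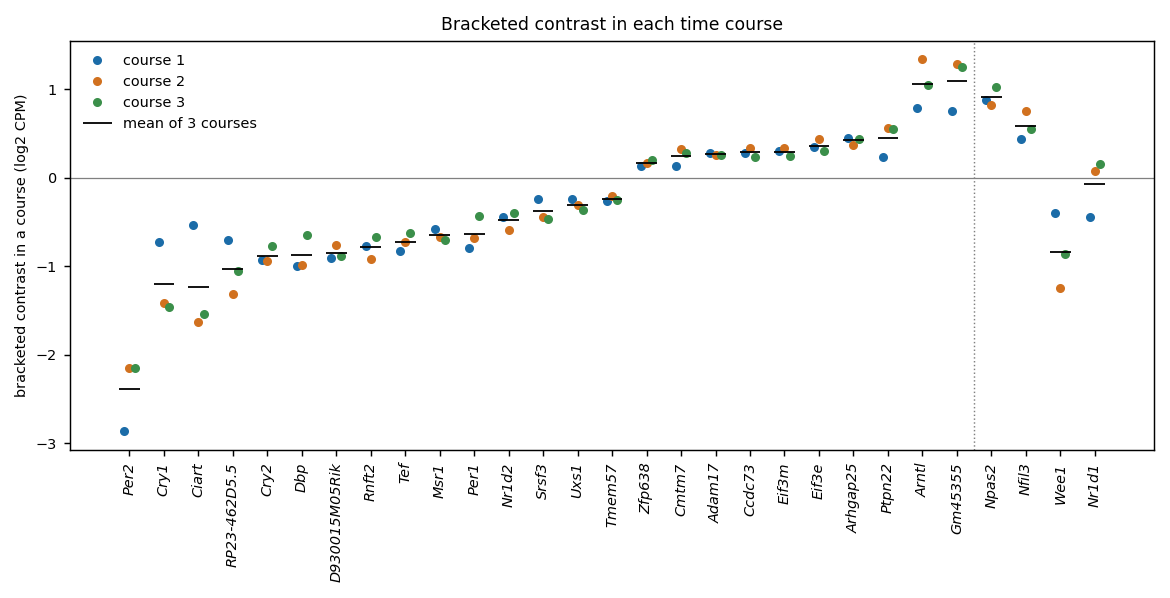
The bracketed contrast in each of the 3 courses (points, log2 CPM) and its mean (bar) for the 25 genes past the both-sided call, then Npas2, Nfil3, Wee1 and Nr1d1 right of the dotted line. The 25 genes keep their sign in all courses; Cry1, Ciart and Arntl are nearest 0 in course 1, and Nr1d1 takes both signs.

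Outside the clock and its outputs, 8 protein-coding genes were higher in the trough than in both peaks. Arhgap25, a GTPase-activating protein for Rac that acts in phagocytes, had 39.2, 46.2 and 51.4 CPM (lowest, median, highest) in the first peak, 58.7, 65.3 and 68.8 CPM in the trough and 42.2, 48.8 and 56.1 CPM in the second peak. All 9 trough libraries lay above all 18 peak libraries, course 1 at 40 h included. Arhgap25 rose by 0.42 ± 0.04 (both-sided adjusted p = 2.38e-06), by 0.47 from the first and 0.37 from the second peak, and the contrast was 0.45, 0.37 and 0.44 in courses 1 to 3. Ptpn22, a tyrosine phosphatase that restrains immune receptor signalling, had medians of 16.6, 25 and 18.3 CPM and rose by 0.47 ± 0.08 (both-sided adjusted p = 0.0282). The trough's lowest value, 16 CPM, was course 1 at 40 h, its highest was 30 CPM, and the other 8 trough libraries lay above every peak library. Adam17, a membrane protease that releases TNF and other anchored proteins, had medians of 260, 338 and 297 CPM. All of its trough libraries lay above the first peak, and it rose by 0.26 ± 0.03 (both-sided adjusted p = 0.0469), by 0.36 from the first and 0.17 from the second peak. This both-sided call held in 4 of 13 alternative settings. It was lost with RLE scaling of the libraries (adjusted p = 0.0648) and whenever a course was left out. Among the other higher genes of this group, the call held in 12 of 13 settings for Arhgap25 and in 7 for Eif3m and Ccdc73. It held in 6 for Ptpn22 and Eif3e, in 5 for Cmtm7 and in 4 for Zfp638. Exons of Adam17 overlap those of Iah1 on the other strand.

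Both translation initiation genes in this group encode subunits of eIF3, which loads messenger RNA onto the small ribosomal subunit. Eif3e had medians of 118, 150 and 109 CPM and rose by 0.36 ± 0.05 (both-sided adjusted p = 0.0115). Eif3m had medians of 77.2, 94.6 and 75.6 CPM and rose by 0.29 ± 0.04 (both-sided adjusted p = 0.00272). Trough libraries lay above both peaks in 7 of 9 cases for Eif3e and in 5 of 9 for Eif3m. Ccdc73 rose by 0.29 ± 0.04, but its exons overlap those of Eif3m on the other strand, and its reads cannot be told apart from those of Eif3m with certainty. Cmtm7, a membrane protein of the chemokine-like MARVEL domain family, rose by 0.25 ± 0.04 (0.30 without course 1 at 40 h, where it read 67.3 CPM beside a trough median of 90.6 CPM). Exons of Cmtm7 overlap those of Gm9888 on the other strand. Zfp638, a zinc finger protein, rose by 0.17 ± 0.03 and missed the both-sided threshold without that library (adjusted p = 0.0510).

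Of the lower genes outside the clock, Msr1 was the most abundant with a known macrophage function, as the class A scavenger receptor. It had 46, 65.7 and 197 CPM (lowest, median, highest) in the first peak, 40.9, 46.9 and 55.9 CPM in the trough and 62.6, 72.1 and 79.4 CPM in the second peak. It lay below every second-peak library but overlapped the first peak, and it fell by 0.67 ± 0.12 (both-sided adjusted p = 0.0318). The bracketing hides a steep course: Msr1 averaged 655 ± 20.8 CPM at 16 h (SD, n = 3) and still 493 ± 56.8 CPM at 18 h, above any of the windows. Srsf3, a splicing factor, went from a median of 73.8 CPM to 54.4 and 69.8 CPM and fell by 0.38 ± 0.06 (both-sided adjusted p = 0.0318), and it too started higher, at 152 ± 9.52 CPM at 16 h. Uxs1, which makes UDP-xylose for proteoglycans, fell by 0.31 ± 0.05, and Tmem57, a membrane protein, by 0.24 ± 0.04. The both-sided call held in 7 of 13 alternative settings for Msr1, in 6 for Srsf3, Uxs1, Tmem57 and RP23-462D5.5, and in 5 for Rnft2. Rnft2 (fall of 0.81 ± 0.16) and RP23-462D5.5 (fall of 1.06 ± 0.18) had trough medians of 0.389 and 0.581 CPM and rest on few counts. They and the overlapping genes D930015M05Rik and Gm45355 fall outside the naming rule and are given to complete the 25.

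**Figure D4:**
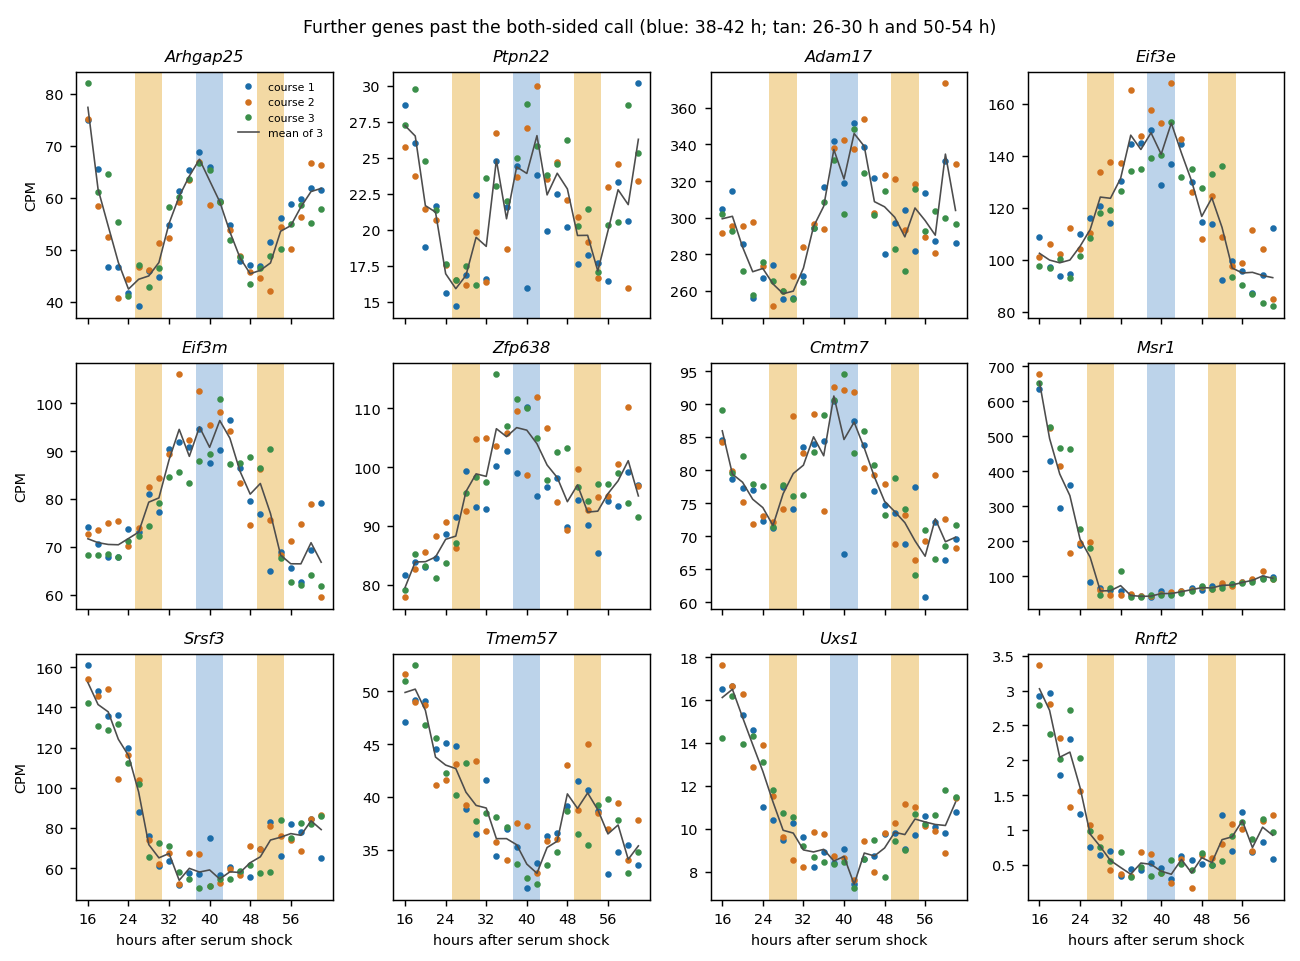
CPM on a linear axis that does not start at 0, against hours after serum shock, for 12 further genes past the both-sided call, 1 point per library coloured by course with the mean of 3 as a line. Arhgap25 falls from 16 h, crests in the blue trough band and rises again by 62 h; Msr1, Srsf3, Uxs1 and Rnft2 are highest at 16 h and only turn up slowly after the trough.

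Libraries outside the 27 gave further values for the 25 genes. The hours 16 and 18 precede the first Per2 peak and 62 h follows the second, and Per2 was low at each. They are set against the same peak windows that entered the contrast, so this is a description. The library of course 2 at 62 h deviated by a root mean square of 0.817 (log2), above the limit of 0.641, and was kept. At 62 h, 11 of the 15 lower genes were below their second-peak mean on the log2 scale, as were 49.6% of all genes, and at 16 and 18 h 10 of 15 were below their first-peak mean, as were 52.6% of all genes. The exceptions were Msr1, Rnft2, Srsf3 and Uxs1 at both ends and Tmem57 at 16 and 18 h. No clock gene or PAR bZIP gene was among them. The mean of Per2 was 1.05 ± 0.385 CPM at 16 h and then 2.48 ± 0.657 CPM at 62 h, and that of Tef was 32.1 ± 3.68 and 78.6 ± 7.68 CPM (SD, n = 3). Of the 10 higher genes, 6 were above their peak mean at each end, beside 50.4% of all genes at 62 h and 47.4% at 16 and 18 h. Arntl reached 35.3 ± 4.94 CPM at 62 h and Arhgap25 61.8 ± 4.24 CPM, while Eif3e (93 ± 16.6 CPM) and Eif3m (66.8 ± 10.7 CPM) were below their second-peak means, and Cmtm7 and Ccdc73 with them.

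Many bracketed calls came from changes that bent and did not turn. Of the 558 lower genes, 292 had opposite signs against the first and second peak, as had 81 of the 519 higher genes, and 460 of the lower and 332 of the higher genes also differed between the peak windows themselves. The same counts were not made over all genes tested, so no background share can be set beside them. The largest bending falls were in S phase genes. Hist1h2bm, a replication-dependent histone, ran from 52.2 to 172 CPM (median 108 CPM) in the first peak, 6.09 to 21.2 CPM (median 8.77 CPM) in the trough and 2.88 to 5.35 CPM (median 3.98 CPM) in the second peak. Its trough lay below the first and above the second peak in all libraries, and the contrast of -1.03 ± 0.15 came from -3.45 and 1.39. Rrm2, a subunit of the reductase that makes deoxynucleotides, had medians of 24.9, 3.29 and 1.77 CPM and a contrast of -1.03 ± 0.17. The other genes named for the size of a bending fall were Hist1h1a, Hist1h2ag, Hist1h2bj and Hist1h2bl, and the lowest contrast was -1.07, of Hist1h2bl. All 16 listed replication-dependent histones were lower by the bracketed contrast and none both-sided, with a median of -2.79 against the first and 0.91 against the second peak. In the S phase list 17 of 24 tested were lower and none both-sided, with medians of -1.28 and 0.27, and the cyclin Ccne2 (-0.83 ± 0.12) and the subunit Rrm1 (-0.52 ± 0.08) were among them. Without course 1 at 40 h, 15 of the 16 histones (Hist1h1e was lost) and 19 of the 24 S phase genes were lower. Over all genes tested, 3.12% were lower, and 6.39% without that library. The G2 and mitosis list fell steadily, at -1.82 and 1.95, so that the contrast nearly cancelled and called only Aurkb among 26 (Aurkb and Cdk1 without course 1 at 40 h).

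Among genes of at least 5 CPM, the bending rises were led by Stab2, a scavenger receptor for hyaluronan, with medians of 5.8, 19.6 and 26 CPM and a contrast of 0.63 ± 0.18 made up of 1.74 and -0.47. Cyp27a1, an enzyme that oxidises the side chain of sterols, had medians of 48.7, 103 and 106 CPM and a contrast of 0.49 ± 0.14. Slc15a3, a peptide and histidine transporter of the endolysosome, had medians of 88.7, 180 and 205 CPM and a contrast of 0.45 ± 0.09. Prdm1, a transcriptional repressor (0.44), Arl5c, a small GTPase of the ARL family (0.42), and RP23-356D13.6 (0.56) completed the 6 named. Trough values of Cyp27a1, Prdm1 and Arl5c in course 1 at 40 h were the lowest of their windows, at 41.7, 6.83 and 24.8 CPM.

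**Figure D5:**
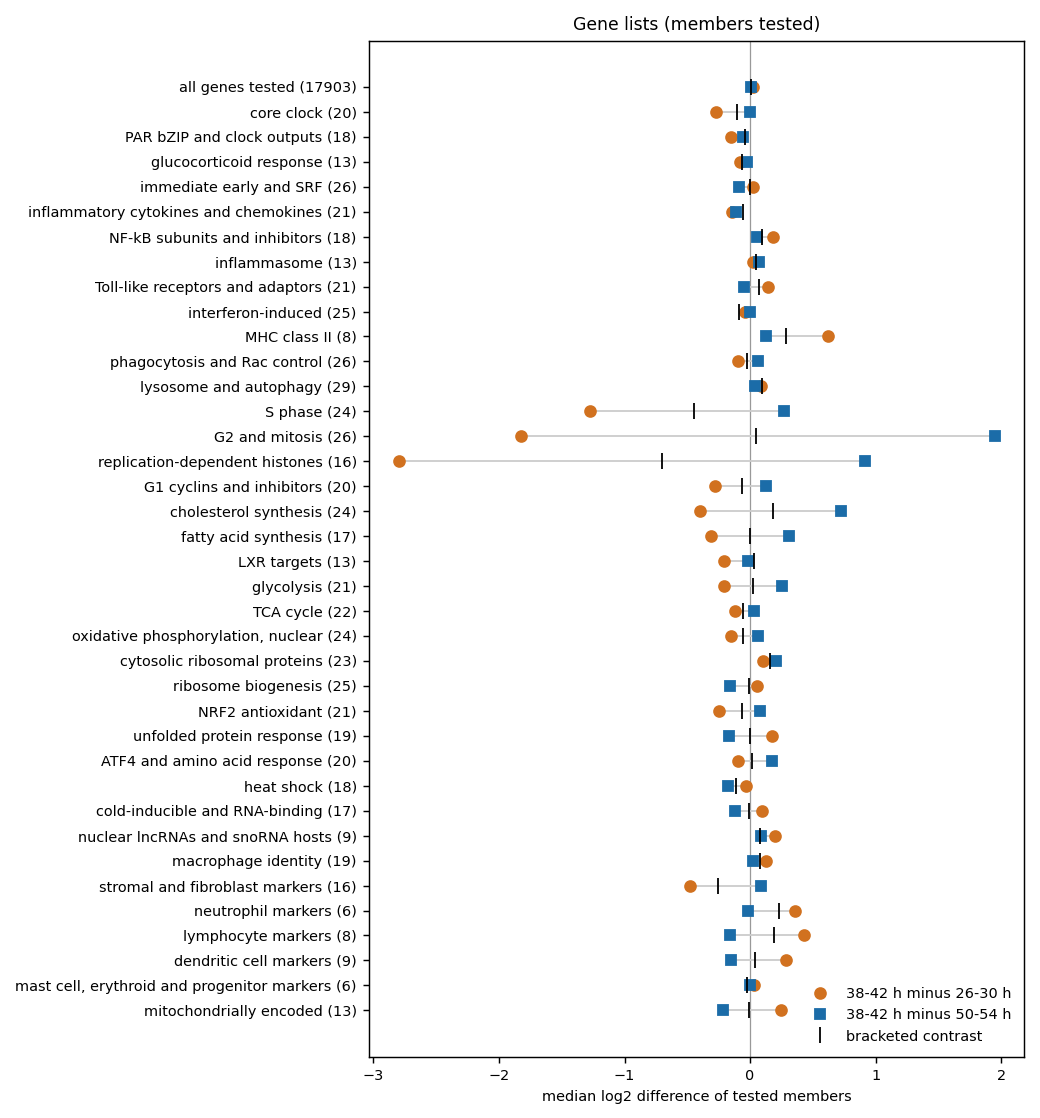
Median log2 difference of the tested members of each gene list (number tested in brackets) for 38 to 42 h minus 26 to 30 h (orange circles), 38 to 42 h minus 50 to 54 h (blue squares) and the bracketed contrast (black ticks). Histones, S phase and G2 and mitosis spread far to either side of 0, while the medians over all genes tested lie at 0.02 and 0.01.

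The other lists gave smaller shifts. Of 23 tested cytosolic ribosomal protein genes, 10 were higher and none lower (medians of 0.10 against the first and 0.21 against the second peak), among them Rpl11 (0.29 ± 0.06) and Rplp0 (0.18 ± 0.05), and none passed both-sided, while 2.9% of all genes tested were higher. Without course 1 at 40 h 9 were higher, beside 6.11% of all genes. In the NF-kB list, 4 of 18 were higher: the inhibitor Nfkbia (0.24 ± 0.05), the kinase Ikbkb (0.12 ± 0.03) and the subunits Relb (0.24 ± 0.06) and Nfkb2 (0.17 ± 0.05). Nfkbie was also higher without course 1 at 40 h (5 of 18). In the lysosome and autophagy list, 5 of 29 were higher, among them the cathepsin Ctsb (0.15 ± 0.04), the membrane protein Lamp1 (0.16 ± 0.04) and the hexosaminidase Hexa (0.16 ± 0.04). Ctsb, Lamp1 and Hexa were higher than in the first peak (0.30, 0.28 and 0.32), and against the second peak their differences were -0.01, 0.04 and 0.01. Gabarapl1, an autophagy protein of the LC3 family, had medians of 153, 180 and 144 CPM and differences of 0.23 and 0.28 from the first and second peak, and did not pass both-sided. Nlrp3, the inflammasome sensor, rose by 0.28 ± 0.07 with medians of 25.9, 40.2 and 39.3 CPM, so its rise also rested on the first peak, and it was the only one of 13 inflammasome genes called. Mefv, Nlrp1b and Nlrp3 (3 of 13) were higher without course 1 at 40 h.

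Stress response and mitochondrial lists held lower calls, to be read beside the 3.12% of all genes tested that were lower (6.39% without course 1 at 40 h). The NRF2 antioxidant list had 4 of 21 lower (Nqo1, Gpx1, Gclc and Prdx1), and Nqo1 (-1.32 and 0.24), Gpx1 (-0.87 and 0.22) and Prdx1 (-0.50 and 0.06) were lower than in the first peak and not lower than in the second. Gclc, a subunit of the enzyme that starts glutathione synthesis, had medians of 14.1, 12 and 15.7 CPM and differences of -0.18 (adjusted p = 0.107) and -0.31 (adjusted p = 0.0102) from the first and second peak. Of the 21, 7 were lower without course 1 at 40 h. The heat shock list had 3 of 18 lower, the chaperones Hspa8 (-0.18 ± 0.04), Hsp90aa1 (-0.23 ± 0.07) and the co-chaperone Stip1 (-0.16 ± 0.04), and 8 of 18 without course 1 at 40 h, in which Hsp90aa1 read 98.5 CPM beside a trough median of 60.2 CPM. Among cold-inducible and RNA-binding genes, Srsf3, Srsf7 (-0.31 ± 0.08) and Tra2b (-0.20 ± 0.05) were lower and Hnrnpl (0.16 ± 0.03) and Srsf5 (0.14) higher of 17 tested, and 6 were lower and 2 higher without course 1 at 40 h. The cold-inducible genes Cirbp (0.09, adjusted p = 0.738) and Rbm3 (-0.10, adjusted p = 0.572) were not called. The nuclear oxidative phosphorylation list had 1 of 24 lower (Cox5a) and 3 higher (among them Uqcrfs1 and Atp5c1). Atp5c1 had medians of 121, 114 and 87.4 CPM, so its trough median lay below that of the first peak. The same list had 9 lower and 2 higher without course 1 at 40 h. The TCA cycle list had 1 of 22 lower (Idh3a), and 8 lower and 1 higher without that library.

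Several immune and metabolic lists had no call with all libraries. Over all genes tested, 3.12% were lower and 2.9% higher, and 6.39% and 6.11% without course 1 at 40 h. In the bracketed contrast edgeR called 0 of 21 inflammatory cytokine and chemokine genes (lowest adjusted p = 0.107, 4 at an unadjusted p under 0.05), 0 of 21 Toll-like receptor and adaptor genes (0.0683, 8 unadjusted), 0 of 25 interferon-induced genes (0.120, 1 unadjusted) and 0 of 8 MHC class II genes (0.124, 2 unadjusted). DESeq2 called Tlr13 lower and no other gene of these 4 lists. Glycolysis (0 of 21), fatty acid synthesis (0 of 17), ribosome biogenesis (0 of 25), the ATF4 response (0 of 20), nuclear non-coding RNAs (0 of 9) and mitochondrially encoded genes (0 of 13) had no call in edgeR either, with 3, 2, 2, 2, 3 and 2 genes at an unadjusted p under 0.05, and DESeq2 called only Psat1 and Gas5 among them. Without course 1 at 40 h, 8 of these 10 lists held calls: 6 higher and 1 lower among Toll-like receptor and adaptor genes, 3 lower and 1 higher in the ATF4 response, 3 lower in fatty acid synthesis (Acly, Elovl5 and Elovl6), 3 lower in ribosome biogenesis (Bop1, Nhp2 and Rrp12), 1 lower in glycolysis (Hk3), 1 lower and 1 higher among cytokines and chemokines (Ccl4 and Cxcl16), and 1 higher each among interferon-induced (Irf1) and MHC class II genes (Ciita). The rest held single calls or a few: Fkbp5 and Per1 lower among 13 glucocorticoid-responsive genes, Ier5 higher among 26 immediate early genes, Fdft1 higher among 24 cholesterol synthesis genes, Calr lower among 19 genes of the unfolded protein response, Pltp higher and Arl4c lower among 13 LXR targets, Rbl1, Cdk2 and Cdkn2c lower and Ccng1 higher among 20 G1 genes, and Cd36, Itgb2 and Msr1 lower and Arhgap25 higher among 26 genes of phagocytosis and Rac control. Of these genes only Per1, Msr1 and Arhgap25 passed both-sided. Cd36 (medians of 431, 127 and 114 CPM), Cdkn2c (162, 61.2 and 38.3 CPM) and Cdk2 (30.2, 23.2 and 20.4 CPM) were lower again in the second peak. No trough library of Cd36, Cdkn2c or Itgb2 lay below the lowest peak library. Without that library, 5 LXR targets were lower and 3 higher, 3 genes of the unfolded protein response were lower, 2 glucocorticoid-responsive genes were lower and 2 higher, 1 immediate early gene was lower and 2 higher, and Mertk was also higher in the phagocytosis list. Cdkn2a was then also lower in the G1 list (4 of 20).

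Of 19 macrophage identity genes tested, Msr1 and Mrc1 (-0.22 ± 0.07) were among those lower and Csf1r (0.39 ± 0.12) was higher. Csf1r, the receptor for M-CSF, had medians of 2106, 3748 and 3540 CPM, and course 1 at 40 h read 1480 CPM. Without that library Mrc1 was not called, and Adgre1, Cd163, Cx3cr1, Maf, Mertk and Csf1r were higher beside a lower Msr1. Over all genes tested, 3.12% were lower and 2.9% higher, and 6.39% and 6.11% without that library. The summed level of all 20 macrophage markers in the files had medians of 24932 CPM in the first peak, 29653 CPM in the trough and 28558 CPM in the second peak, and ranged from 20173 to 34967 CPM within the trough. Irf8 was counted at 0 in each of the 27 libraries. Whether this reflects the cells or the counting was not tested. Of markers of other cells, the 18 stromal markers summed to medians of 167, 88.0 and 121 CPM with ranges of 22.5 to 434, 20.96 to 419 and 41.3 to 319 CPM, and 0 of 16 tested were called (lowest adjusted p = 0.523). The 17 mast cell, erythroid and progenitor markers summed to medians of 98.2, 34.2 and 31.5 CPM, with 1 lower (Pf4) and 1 higher (Cpa3) of 6 tested. Mcpt4 and the globin genes Hba-a1, Hba-a2 and Hbb-bs were at 0 in all windows, and Hbb-bt in the trough and second peak only. The 11 dendritic cell markers summed to medians of 46.0, 112 and 146 CPM, with 0 of 9 called. The 15 neutrophil markers summed to medians of 50.8, 77.8 and 85.8 CPM and the 17 lymphocyte markers to 215, 228 and 258 CPM, with 0 of 6 and 0 of 8 called. Without course 1 at 40 h Cpa3 was not called, and the neutrophil list (Csf3r) and the dendritic cell list (Clec10a) each had 1 gene higher. The part of these cells in the results was not tested.

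The courses gave no called difference in the bracketed contrast. In this test the 3 time points of a window in a course served as replicates, so change within a window adds to its error. The absence of calls therefore does not show that the courses agree. The test of the 2 terms by which 3 courses can differ called 0 of 17903 genes (0%) in edgeR, where 1265 had an unadjusted p under 0.05 and the lowest adjusted p was 0.705. The unadjusted p was 0.0117 for Per2, 0.0326 for Ciart, 0.0501 for Cry1 and 0.232 for Arntl. Per2's contrast was -2.86 in course 1 and -2.15 in each of courses 2 and 3, and Cry1's was -0.73, -1.41 and -1.46. The genes with the smallest p were Slamf8, Spata5, Hal, Fam96b and Kit, all at the same adjusted p of 0.705.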

How the data were processed

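RNA was measured in 72 libraries of synchronised macrophages, of which 27 form the contrast. Per the labels' protocols, RNA was column-purified and depleted of ribosomal RNA before paired-end HiSeq sequencing. The submitters' processing notes name DRAGEN, HTSeq and the GRCm38 (mm10) build; their versions, the annotation release and the strand setting are not stated in the sources at hand. The authors deposited whole-number counts per gene symbol, with no normalization, as the values show. A table lists 49568 genes; its last 5 lines, which are tallies of other reads, were left out. In the 27 libraries the line for no feature held 30.8% to 36.0% of the tally, that for alignments not unique 21.05% to 31.44% and that for ambiguous assignment 1.28% to 1.76%.

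Genes were kept by filterByExpr (17903 genes), scaled by TMM and fitted in edgeR 4.0.16 (R 4.3.3; glmQLFit, glmQLFTest) with 1 level for each of 24 time points, 48 residual degrees of freedom and no term for the course. All 72 libraries share 1 estimate of the spread. The bracketed contrast and both differences behind it were tested in this fit. The p-value of the both-sided call is the larger of both p-values where the signs match and 1 otherwise. Adjustment was by Benjamini-Hochberg over all genes tested, at a threshold of 0.05. An SE is the absolute log2 difference divided by the square root of F. The course difference was tested in the 27 libraries with 9 cells of window and course. Per-course values are log2 CPM with a prior count of 2. CPM of the named genes include the TMM factor. The scripts were tested on simulated data.

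The windows, gene lists and tests were chosen with earlier results of these data known. The naming rule takes all tested core clock and output genes, the 12 largest both-sided differences each way with at least 5 CPM and like signs in each course, the 6 largest bending changes each way, the 5 smallest p-values of the course difference, and up to 4 called members of each list; Srsf5 and genes named as called or not called within a list were added after their values were seen, and some genes that the rule takes are not reported here. Gene positions and exon overlaps are from GENCODE M21 (GRCm38), which holds 23 of the 25 both-sided genes by symbol. Examples are Per2 (chr1:91415982-91459324, minus strand), Arntl (chr7:113207465-113314126, plus strand), Cry1 (chr10:85131700-85185064, minus strand) and Arhgap25 (chr6:87458545-87533259, minus strand). Promoters are from RefSeq (GRCm38.p6). Alternatives used DESeq2 1.42.0, limma 3.58.1, other scaling, filters, windows and sets of libraries.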

Additional observations from a re-analysis of the deposited data

Results flagged for a closer look

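Within each window of 9 libraries, the most extreme library of each named called gene, and of Nr1d1 and Clock, was compared with its nearest neighbour on the log2 CPM scale by Dixon's test. Of 279 windows in 93 genes, 29 held a library far from the others, where chance flags about 1 in 20, and the windows of related genes are not independent. In 20 of the 29 the library was course 1 at 40 h, in the trough. It was low for Arntl (20.5 CPM), Gm45355 (1.9 CPM), Cmtm7 (67.3 CPM), Ptpn22 (16 CPM), Ikbkb (86.1 CPM), Fdft1 (297 CPM), Csf1r (1480 CPM), Ctsb (20400 CPM), Mrc1 (821 CPM), Pf4 (16 CPM), Pltp (809 CPM), Prdm1 (6.83 CPM), Arl5c (24.8 CPM) and Cyp27a1 (41.7 CPM). It was high for Ciart (2.77 CPM), Gclc (21.6 CPM), Hsp90aa1 (98.5 CPM), Slc15a3 (294 CPM), Srsf7 (40 CPM) and Stip1 (68 CPM).

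The other 9 lay in the peak windows. In the first peak, course 2 at 30 h was high for Cmtm7 (88.3 CPM) and low for Hist1h2ab (45.8 CPM) and Hist1h2ag (21.7 CPM), course 1 at 30 h was low for Clock (51.8 CPM), and course 3 at 28 h was high for D930015M05Rik (5.04 CPM). In the second peak, course 2 at 50 h was high for Lamp1 (3940 CPM) and low for Nlrp3 (31.5 CPM), course 2 at 54 h was high for Gclc (19.5 CPM), and course 3 at 54 h was low for Aurkb (2.04 CPM).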

How the results depend on the processing

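Counts are given as lower and higher genes. Leaving out a whole time course in turn gave 189 to 498 and 82 to 414 genes in the bracketed contrast, 5 to 8 and 1 to 3 both-sided, and 2 to 6 core clock genes both-sided. Each of the 6 to 11 both-sided genes so found was among the 25. Outside the clock and output genes and the genes that overlap them, only Arhgap25 passed in any of these fits, and it passed in each. Without course 1 at 40 h the bracketed contrast held 1144 and 1093 genes and the both-sided call 25 and 19. Without the 4 libraries that stand apart (course 1 at 40 and 56 h, course 2 at 60 and 62 h), an alternative chosen after seeing the data, these were 1512 and 1388, and 44 and 29. Fitting the 27 libraries only called 497 and 284 genes, and 10 and 5 both-sided, 15 of them among the 25. Testing every gene with a count, where more genes were adjusted for, called 419 and 236 genes, and 12 and 7 both-sided. With 3 window levels the counts were 356 and 193, then 6 and 3, with 4 core clock genes both-sided. With the central time points only (40, 28 and 52 h, 9 libraries) they were 33 and 12, then 5 and 1, with 2 core clock genes both-sided. Limma on 3 course values called 76 and 12 genes, 4 of them in the core clock, and 0 and 0 both-sided. DESeq2 and RLE scaling gave counts within 1.5 times of those reported, and 25 and 24 of the 25 both-sided genes passed in them (Adam17 was lost with RLE). Nr1d1, not called in any setting, ranged from -0.16 to 0.11 when a course was left out and turned positive without replicate 1, without course 1 at 40 h (0.057) and without the 4 libraries (0.057), and with the central time points only Gclc (0.044) and Hsp90aa1 (0.058) did; the cause was not tested.

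Course numbers were not taken as pairs: deviations of libraries of the same course correlated from -0.32 to 0.53 (median 0.12, 60 of 108 pairs over 0.1), and 20 of 27 libraries correlated best with their own course, a hint from the data and not from the design. With the course as a replicate block, 740 genes were lower and 773 higher, and both-sided 15 and 14, with all 25 among them, and Npas2 also passed (adjusted p = 0.0196). Depth limits genes with a trough median under 1 CPM, about 55 counts, among them Rnft2, RP23-462D5.5, Cpa3 and Ciart of those called.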
